A study of Homo sapiens with 4 samples.

Results

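The ATP-binding cassette (ABC) genes studied here were the genes of the count table whose symbol was ABC followed by a subfamily letter from A to G and a number. This name rule used no measured value and found 46 genes among 59652 in the table. Subfamily A had 12 of them, B had 9, C had 12, D had 4, E had 1, F had 3 and G had 5. In GENCODE release 44, 45 of the 46 were protein-coding and ABCC13 was classed as a lncRNA. The genes were grouped by role: sterol and phospholipid efflux, sterol secretion into bile, export across the canalicular (bile-facing) membrane, multidrug efflux, export of organic anions, other lipid transport by subfamily A, mitochondrial, lysosomal and peroxisomal transport, channel regulation, and the E and F subfamilies.

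ABC transporters bind and hydrolyse ATP to move a substrate across a membrane, and in the liver they export bile salts, phospholipids, sterols, conjugated bilirubin and drugs. Several of them, above all ABCB1, ABCC1 and ABCG2, are known for lowering the drug content of tumour cells. The E and F subfamilies carry the ATP-binding domains without a membrane part and act on the ribosome and in translation.

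RNA of Huh7 and PLC cells, both human hepatocellular carcinoma (HCC) cell lines with a WT genotype, was sequenced after the cells had been kept for 48 h at 5 mM (low glucose) or 25 mM glucose (high glucose). The same glucose-free medium with serum and antibiotics was the base for all cultures, and rRNA was removed before library construction. There was 1 library for each line and glucose level, 4 in all, so no condition had a replicate. The question was which ABC genes the lines expressed, which differed between the lines, and how the levels at 25 mM compared with those at 5 mM in each line.

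The libraries held between 16049686 and 30279716 counted reads, the fewest in PLC cells at 25 mM. Levels are given as FPKM, the counts of a gene scaled to its exon length and to the depth of its library. Of 12 hepatocyte and hepatoma markers, 9 were higher in Huh7 and 1 in PLC cells by the same edgeR test as used for the ABC genes. Of all genes tested, 21.8% were higher in Huh7 and 21.1% in PLC cells. ALB, the gene of albumin, stood at 2017 and 2039 FPKM in Huh7 and at 52.4 and 72.3 FPKM in PLC cells at 5 and 25 mM, and TTR, the gene of transthyretin, had 4 and 0 reads in PLC cells. HNF4A, a hepatocyte transcription factor, was between 29.0 and 38.5 FPKM in all 4 libraries. Of the markers of other cell types, 1 of 4 for leukocytes, 1 of 3 for endothelium, 3 of 4 for fibroblasts and 2 of 3 for bile duct cells were tested. Of those tested, 1, 1, 2 and 2 were higher in Huh7 and 0 in PLC cells, against the same shares of all genes. COL1A1, PDGFRB, KRT19, EPCAM and, among the hepatocyte markers, TTR had at most 4 reads in a PLC library. These genes passed the test's filter on low counts through Huh7 alone, so their calls are no support of their own beside the reads. The 2 fibroblast genes, COL1A1 and PDGFRB, had at most 36 reads in a Huh7 and 3 in a PLC library. The fibroblast list summed to at most 0.359 FPKM and the endothelial list, almost all of it PECAM1, to 2.37 and 2.55 FPKM in Huh7 and 0.122 and 0.310 FPKM in PLC cells. CD3E had 0 reads in all libraries, VWF and CDH5 had at most 2 and KRT7 at most 5. KRT19, a keratin of bile duct cells, was at 30.1 and 23.9 FPKM in Huh7 and had 1 and 0 reads in PLC cells. LYZ, a lysozyme gene of myeloid cells, was at 33.2 and 35.0 FPKM in Huh7 and at 3.54 and 10.8 FPKM in PLC cells, and the part of these markers in the differences between lines was not tested.

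The family took a like share of each library, 0.248% and 0.231% of the reads in Huh7 and 0.251% and 0.212% in PLC cells at 5 and 25 mM. Of the 46 genes, 40 had at least 20 reads in some library and 26 had them in all 4. The other 6 stayed under 20 reads everywhere: ABCA8, ABCC8, ABCC9, ABCC12, ABCC13 and ABCG1. ABCC12 and ABCC13 had 0 reads in all libraries. FPKM was over 1 for 23 and 24 genes in Huh7 and for 23 genes in each PLC library. The 3 genes with the highest FPKM held between 39.0% and 44.8% of the family's summed FPKM. In Huh7 cells at 5 mM these were ABCE1, ABCC2 and ABCA1, and in PLC cells at 5 mM they were ABCC2, ABCF1 and ABCD3.

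**Figure D1:**
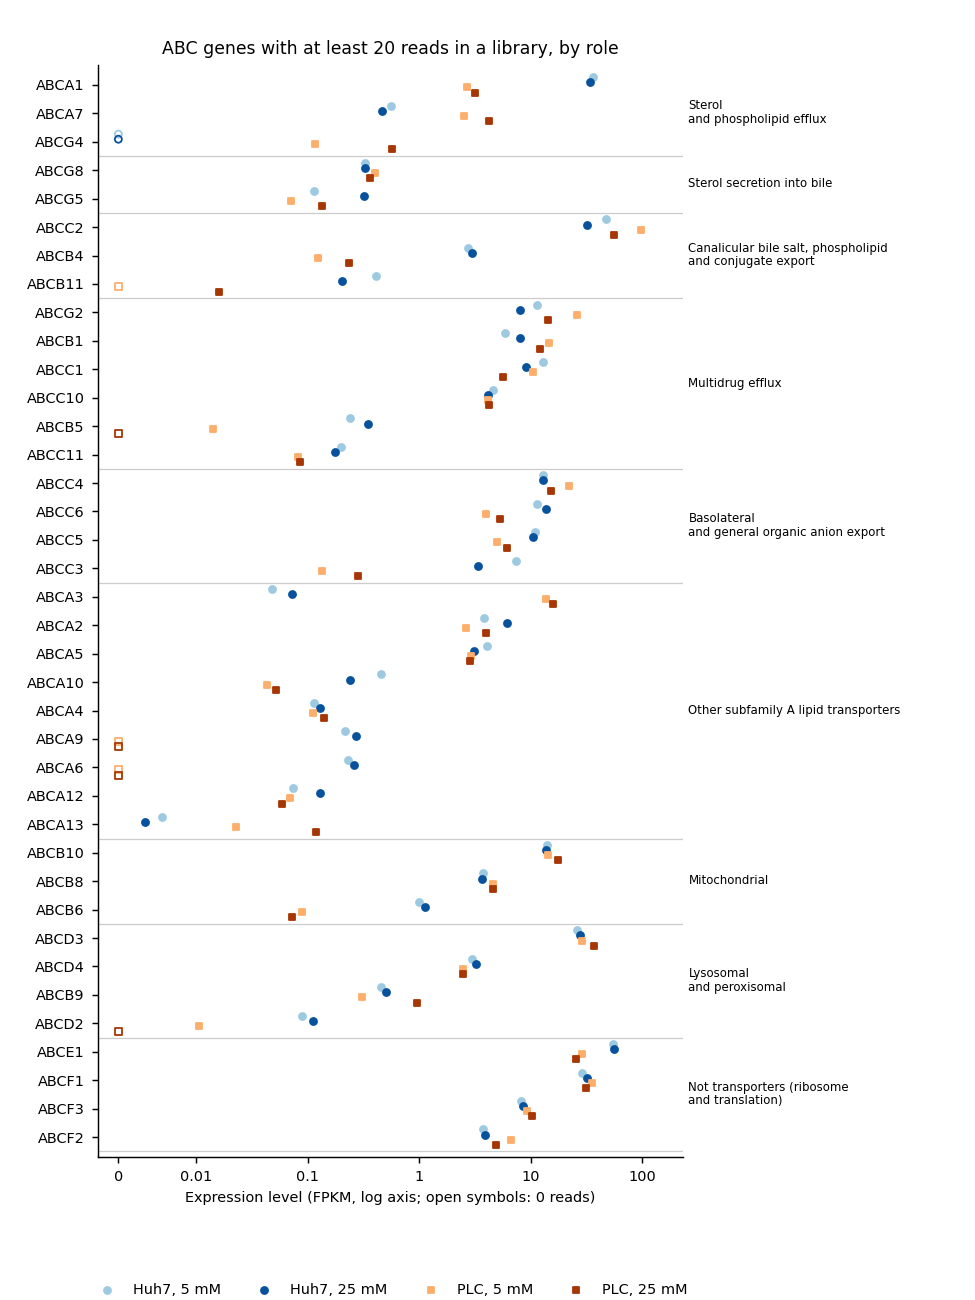
Level of 38 of the 40 ABC genes with at least 20 reads in a library, in FPKM on a log axis, by role; circles are Huh7 and squares are PLC libraries, light at 5 mM and dark at 25 mM, each point is 1 library, and open symbols stand for 0 reads. ABCA3 lies below 0.1 FPKM in Huh7 and above 13 FPKM in PLC cells, and ABCA1 lies the other way round.

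By summed FPKM, the ABCE1 and ABCF genes made up 29.0% and 32.2% of the family in Huh7 and 22.1% and 23.3% in PLC cells. The canalicular genes, almost all of it ABCC2, made up 15.3% and 11.2% in Huh7 and 27.0% and 18.3% in PLC cells. Sterol and phospholipid efflux made up 11.2% and 11.0% in Huh7 but 1.48% and 2.62% in PLC cells. These shares come from 1 library each and carry no test.

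The promoters of 4 genes on which the comparisons turn are shown as RefSeq windows on GRCh38.p14, each of 300 bases, 250 before and 50 after the annotated start. ABCA3 and ABCA1 had the smallest adjusted p of the family between the lines, in opposite directions, ABCC2 had the highest FPKM in both PLC libraries, and ABCG8 shares its promoter with ABCG5. Windows were found for 35 of the 46 genes, 53 windows in all. Capitals in the windows of ABCA1 (chr9:104928106-104928405, minus strand), ABCA3 (chr16:2340679-2340978, minus strand) and ABCC2 (chr10:99782390-99782689, plus strand) mark matches on either strand to 5 short motifs, which do not overlap in these windows. They are the TATA box, searched as TATAAA, and the CCAAT box, searched under that name. The GC box was searched as GGGCGG, and the E-box, which reads the same on both strands, as CACGTG. The core of the antioxidant response element was searched as TGACNNNGC, where N is any base. Capitals in the ABCG8 window (chr2:43838721-43839020, plus strand) mark the 231 bases that it shares with the window of ABCG5.
ABCA1: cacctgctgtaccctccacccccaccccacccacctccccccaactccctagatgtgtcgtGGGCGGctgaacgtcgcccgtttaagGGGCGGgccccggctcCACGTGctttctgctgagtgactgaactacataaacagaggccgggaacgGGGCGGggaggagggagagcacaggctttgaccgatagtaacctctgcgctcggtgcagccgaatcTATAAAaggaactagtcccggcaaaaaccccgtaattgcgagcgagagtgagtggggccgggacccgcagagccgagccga
ABCA3: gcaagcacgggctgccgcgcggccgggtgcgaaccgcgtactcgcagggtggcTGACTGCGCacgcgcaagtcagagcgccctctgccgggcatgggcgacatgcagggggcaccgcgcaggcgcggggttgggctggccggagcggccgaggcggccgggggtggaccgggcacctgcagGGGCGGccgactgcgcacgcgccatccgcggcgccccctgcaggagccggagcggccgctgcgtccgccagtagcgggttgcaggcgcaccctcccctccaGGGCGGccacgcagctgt
ABCC2: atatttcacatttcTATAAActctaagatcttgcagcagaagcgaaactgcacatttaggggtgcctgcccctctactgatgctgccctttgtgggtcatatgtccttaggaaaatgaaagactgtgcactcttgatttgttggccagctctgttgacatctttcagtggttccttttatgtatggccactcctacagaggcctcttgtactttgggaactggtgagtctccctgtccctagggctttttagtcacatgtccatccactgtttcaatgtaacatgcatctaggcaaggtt
ABCG8: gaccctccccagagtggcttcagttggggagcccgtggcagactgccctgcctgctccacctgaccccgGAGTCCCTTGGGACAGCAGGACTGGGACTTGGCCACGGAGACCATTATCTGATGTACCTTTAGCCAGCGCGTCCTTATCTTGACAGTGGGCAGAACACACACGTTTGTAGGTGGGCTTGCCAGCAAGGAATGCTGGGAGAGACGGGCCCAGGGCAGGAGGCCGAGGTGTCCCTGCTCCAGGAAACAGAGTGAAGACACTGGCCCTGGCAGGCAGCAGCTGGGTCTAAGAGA

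The ABCA1 window held the TATA box at its bases 220 to 225, the E-box at 104 to 109 and the GC box at 3 places. The ABCA3 window held the GC box at 2 places and the antioxidant core at bases 54 to 62, and the ABCC2 window held the TATA box at bases 15 to 20 and no match to the others. Of all 35116 windows in the RefSeq table, 11.5% held the TATA box, 34.6% the CCAAT box, 45.0% the GC box, 7.26% the E-box and 13.3% the antioxidant core. Of the 53 ABC windows, 8 held the TATA box (15.1%), 12 the CCAAT box (22.6%), 25 the GC box (47.2%), 9 the E-box (17.0%) and 12 the antioxidant core (22.6%). Some genes have more than 1 window, and windows of a gene can overlap, as for ABCC6 and ABCG2. The 9 E-box windows include overlapping windows of ABCG2, so these counts are of windows and not of genes. A match describes the letters of the window only. G and C made up 62.7% of the bases in the ABCA1 window, 78.0% in that of ABCA3 and 45.0% in that of ABCC2, against a median of 58.7% over all windows.

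The lines were compared with edgeR's quasi-likelihood test on the counts, with glucose as a second term, over 23217 genes that passed the filter on low counts. The 2 libraries of a line were not replicate cultures. The p-values rest on 1 residual degree of freedom for each gene and on spread that the quasi-likelihood fit shares across genes. The SE given is the size of the log2 difference divided by the square root of the test's F statistic. Of the 46 ABC genes, 40 were tested and 21 passed an adjusted p of 0.05, which is 52.5% of those tested against 42.9% of all genes tested. Higher in Huh7 were 13 (32.5%, against 21.8% of all genes), and higher in PLC were 8 (20%, against 21.1%). A gene with reads in 1 line only passes the filter through that line and so had to differ, and the share of ABC genes is to be read with that in mind. Among genes with at least 10 counts in every library, 11 of 28 ABC genes passed, 39.3% against 39.2% of all genes. The other 10 called genes, ABCA3, ABCA6, ABCA9, ABCA10, ABCA13, ABCB5, ABCB6, ABCB11, ABCD2 and ABCG4, had under 10 counts in at least 1 library. For these the adjusted p is no support of its own beside the reads. The median size of the log2 difference was 0.96 for the ABC genes tested and 0.87 for all genes tested. Fits that left out 1 library had the line as their only term and kept 1 library for that line. Line and glucose cannot be told apart in those fits. Fewer expressing cells and less RNA per cell cannot be told apart in these bulk libraries.

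**Figure D2:**
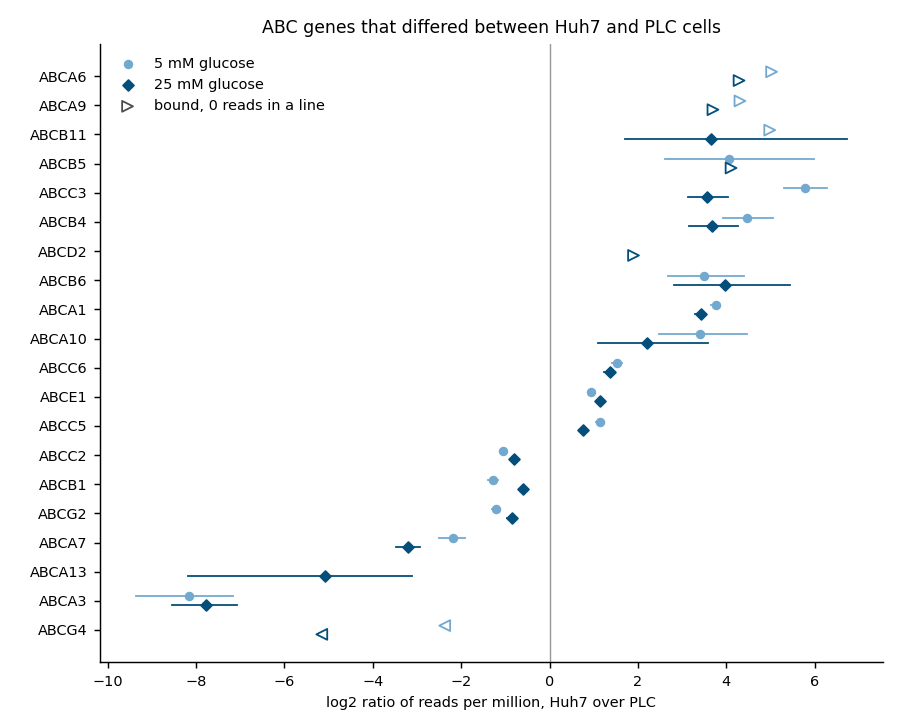
Log2 ratio of CPM (counts scaled to the library total), Huh7 over PLC, of 20 of the 21 ABC genes that differed between the lines, at 5 mM (circles) and 25 mM (diamonds); horizontal lines are 95% counting intervals and open triangles are bounds against 3 reads where a line had 0 reads. The 13 genes higher in Huh7 are at the top and 7 of those higher in PLC at the bottom; ABCA13 and ABCD2 have no point at 5 mM, where both lines were under 20 reads.

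In the role of sterol and phospholipid efflux, ABCA1, which loads cholesterol and phospholipid onto apolipoprotein A-I, was higher in Huh7 cells. Its level was 36.3 and 33.9 FPKM in Huh7 at 5 and 25 mM and 2.68 and 3.16 FPKM in PLC cells. Both Huh7 libraries were above both PLC libraries, by 13.6-fold at 5 mM (95% counting interval 12.7 to 14.5) and 10.7-fold at 25 mM (9.86 to 11.7). In edgeR the log2 difference was 3.59 (SE 0.23, adjusted p = 6.42e-08). Intervals of ratios given here are exact Clopper-Pearson intervals and cover counting error only.

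ABCA7, a phospholipid transporter close to ABCA1 in sequence, lay the other way round. It stood at 0.556 and 0.464 FPKM in Huh7 and 2.54 and 4.26 FPKM in PLC cells, 4.58-fold (3.75 to 5.62) and 9.16-fold (7.60 to 11.1) higher in PLC, with a log2 difference of -2.70 for Huh7 minus PLC (SE 0.33, edgeR adjusted p = 2.33e-05). ABCG4, a sterol transporter best known from brain, had 0 reads in both Huh7 libraries and 22 and 57 reads in PLC cells at 5 and 25 mM, so it was at least 5.18-fold and 35.6-fold higher in PLC when 0 is set to the floor of 3 reads in the Huh7 library (edgeR adjusted p = 0.000249). ABCG1, which exports cholesterol to high-density lipoprotein, had 4 and 4 reads in Huh7 and 6 and 2 in PLC cells and was not tested. Of the regulators of this role, NR1H3 (LXRα) was higher in Huh7 at 6.19 and 5.48 against 2.13 and 3.09 FPKM (edgeR adjusted p = 0.00591), and NR1H2 (LXRβ) was higher in PLC at 12.8 and 13.8 against 5.99 and 6.22 FPKM (adjusted p = 0.00184). APOA1, the acceptor of ABCA1's lipid, stood at 44.2 and 67.0 FPKM in Huh7 and 0.783 and 2.96 FPKM in PLC cells (adjusted p = 1.72e-07).

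For sterol secretion into bile, neither half-transporter passed the test. ABCG5 had 9 and 36 reads in Huh7 and 8 and 8 in PLC cells, and ABCG8 had 71 and 99 reads in Huh7 and 123 and 59 in PLC cells. ABCG8 was at 0.326 and 0.323 FPKM in Huh7 and at 0.399 and 0.361 FPKM in PLC cells, and its edgeR log2 difference was -0.23 (SE 0.40, adjusted p = 0.673). The pair lies head to head on chromosome 2, with RefSeq starts 132 bases apart. In the annotation of the count table the 2 genes overlap by 6924 bases. The exons of the 2 genes share 137 positions on opposite strands, and how the counting treated strand is not given in the sources used here.

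Of the 3 canalicular genes, ABCB11 and ABCB4 were higher in Huh7 and ABCC2 was higher in PLC cells, against 42.9% of all genes called in either direction. ABCB11, the bile salt export pump, had 67 and 47 reads in Huh7 and 0 and 2 in PLC cells. That put it at least 31.6-fold higher in Huh7 at 5 mM and 12.5-fold higher at 25 mM (3.28 to 107), with an edgeR adjusted p of 0.000683, but at no more than 0.406 FPKM. ABCB4, which flops phosphatidylcholine into bile, stood at 2.75 and 3.0 FPKM in Huh7 and 0.124 and 0.234 FPKM in PLC cells. It was 22.2-fold (15.3 to 33.6) and 12.8-fold (8.85 to 19.3) higher in Huh7, with a log2 difference of 4.07 (SE 0.38, edgeR adjusted p = 1.77e-06).

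ABCC2 (MRP2), the canalicular exporter of conjugated bilirubin and glutathione conjugates, was the highest of the family in both PLC libraries. Its level was 47.3 and 31.7 FPKM in Huh7 and 97.7 and 55.7 FPKM in PLC cells. It was 2.06-fold (2.01 to 2.12) and 1.76-fold (1.70 to 1.81) higher in PLC, with an edgeR log2 difference of -0.93 (SE 0.20, adjusted p = 0.00195). Its edgeR adjusted p was 0.0714 without the glucose term, 0.271 without the Huh7 library at 25 mM and 0.156 without the PLC library at 5 mM. Of 11 regulators, 5 were higher in Huh7 and 3 in PLC cells (against 21.8% and 21.1% of all genes). NR1H4 (FXR), the bile acid receptor that drives ABCB11, had 5397 and 9247 reads in Huh7 and 5 and 0 in PLC cells (edgeR adjusted p = 2.93e-09). NR1H4, 1 of these 5, passed the filter through Huh7 alone, so its adjusted p is no support of its own beside the reads. NR0B2 lay the other way, at 30.3 and 22.4 FPKM in PLC and 2.61 and 3.05 FPKM in Huh7 (adjusted p = 5.24e-06). The transport gene SLC51B was also higher in PLC, at 36.6 and 61.9 against 13.6 and 15.6 FPKM (adjusted p = 0.000227). The part of the regulators in these differences was not tested. ATP8B1, a canalicular phospholipid flippase, was higher in PLC at 13.0 and 9.52 against 2.92 and 2.37 FPKM (adjusted p = 1.79e-05).

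Among the multidrug pumps, ABCG2 (BCRP) was at 11.3 and 7.98 FPKM in Huh7 and 26.1 and 14.4 FPKM in PLC cells. It was 2.32-fold (2.18 to 2.46) and 1.80-fold (1.67 to 1.95) higher in PLC (edgeR log2 difference -1.04, SE 0.23, adjusted p = 0.00291). The edgeR adjusted p of ABCG2 was 0.0541 without the glucose term, 0.230 without the Huh7 library at 25 mM and 0.104 without the PLC library at 5 mM. ABCB1 (MDR1, P-glycoprotein) was at 5.94 and 8.05 FPKM in Huh7 and 14.5 and 12.1 FPKM in PLC cells. Its PLC excess was 2.44-fold (2.26 to 2.64) at 5 mM and 1.5-fold (1.40 to 1.62) at 25 mM (log2 difference -0.94, SE 0.26, edgeR adjusted p = 0.00933). With the Huh7 library at 5 or 25 mM left out, its adjusted p was 0.269 or 0.0830.

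ABCB5, a close relative of ABCB1, was higher in Huh7, with 47 and 97 reads there and 4 and 0 in PLC cells. The ratio was 16.6 (6.09 to 63.6) at 5 mM and at least 17.2 at 25 mM (edgeR adjusted p = 0.000382). ABCC1 (MRP1), an exporter of glutathione conjugates and drugs, stood at 12.8 and 9.04 FPKM in Huh7 and 10.5 and 5.63 FPKM in PLC cells. Its log2 difference of 0.48 (SE 0.24) missed the threshold (edgeR adjusted p = 0.124). Without the PLC library at 5 mM this difference was 1.01. ABCC10 was between 4.12 and 4.59 FPKM in all libraries and ABCC11 between 0.0821 and 0.200 FPKM, and neither passed the test. So ABCB1 and ABCG2 were called higher in PLC cells. ABCB5 was the 1 multidrug gene called higher in Huh7, at 0.238 and 0.348 FPKM there. ABCC1, which was not called, was 1.22-fold (1.15 to 1.29) higher in Huh7 at 5 mM and 1.61-fold (1.47 to 1.75) at 25 mM.

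Of the 4 organic anion exporters, ABCC3, ABCC5 and ABCC6 were higher in Huh7 (against 21.8% of all genes tested), and ABCC5 lost its call when either Huh7 library was left out. ABCC3 (MRP3), which returns conjugates to the blood across the basolateral membrane, was at 7.32 and 3.39 FPKM in Huh7 and 0.134 and 0.285 FPKM in PLC cells. The ratio of Huh7 to PLC was 54.6 (39.8 to 77.1) at 5 mM and 11.9 (8.78 to 16.5) at 25 mM, with a log2 difference of 4.67 (SE 0.46, edgeR adjusted p = 3.10e-06). The intervals at the 2 glucose levels did not overlap.

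ABCC6, whose loss causes pseudoxanthoma elasticum, stood at 11.4 and 13.7 FPKM in Huh7 and 3.93 and 5.32 FPKM in PLC cells (2.90-fold and 2.57-fold, edgeR adjusted p = 0.000257). Its pseudogenes ABCC6P1 and ABCC6P2 are near-identical to part of it, so the assignment of reads among the 3 is uncertain. ABCC5, an exporter of cyclic nucleotides and nucleotide analogues, was at 10.8 and 10.5 FPKM in Huh7 and 4.94 and 6.17 FPKM in PLC cells (2.19-fold and 1.70-fold, edgeR adjusted p = 0.00433). Without the Huh7 library at 5 or 25 mM its adjusted p was 0.130 or 0.103. ABCC4 (MRP4), a basolateral exporter of bile acids and cyclic nucleotides, was at 13.0 and 13.0 FPKM in Huh7 and 21.9 and 15.3 FPKM in PLC cells. Its log2 difference was -0.50 (SE 0.23, edgeR adjusted p = 0.0977), and -0.85 without the PLC library at 25 mM.

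ABCA3, which moves phospholipid into the lamellar bodies of lung cells, had the smallest adjusted p of the family. It had 8 and 17 reads in Huh7 and 3228 and 1974 in PLC cells, or 0.0480 and 0.0724 against 13.7 and 15.8 FPKM. The PLC level was 285-fold (144 to 660) higher at 5 mM and 218-fold (136 to 374) at 25 mM, with an edgeR log2 difference of -7.91 (SE 0.35, adjusted p = 3.46e-09). ABCA13, the gene with the longest exon sequence in the family, had 2 and 2 reads in Huh7 and 13 and 36 in PLC cells. Its adjusted p was 0.0108 in edgeR and 0.105 in DESeq2, and in edgeR it was 0.0707 without the Huh7 and 0.149 without the PLC library at 25 mM.

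The ABCA6 group, 5 lipid transporters of unsettled substrate, lies in a row on the minus strand of chromosome 17 in the order ABCA8, ABCA9, ABCA6, ABCA10 and ABCA5. ABCA6 had 69 and 110 reads in Huh7 and 0 in both PLC libraries, at least 32.6-fold and 19.6-fold higher in Huh7. It passed the filter through Huh7 alone (edgeR adjusted p = 2.60e-05). ABCA9 had 42 and 73 reads against 0 and 0, at least 19.8-fold and 13.0-fold higher, with the same limit (edgeR adjusted p = 0.000143). ABCA10 had 82 and 61 reads against 11 and 7, 10.6-fold (5.6 to 22) and 4.65-fold (2.13 to 12) higher (adjusted p = 0.00177, or 0.0528 without the Huh7 library at 5 mM). At the edges of the row, ABCA8 had at most 18 reads in any library and was not tested, and ABCA5, a lysosomal transporter, was between 2.84 and 4.10 FPKM everywhere and missed the threshold (adjusted p = 0.347). ABCA10 and ABCA5 share 318 exon positions on the same strand. Among the rest of subfamily A, ABCA2, ABCA4 and ABCA12 were not called (adjusted p = 0.0647, 0.964 and 0.544 in edgeR). The log2 difference of ABCA2 was 0.58, and 0.84 without the PLC library at 25 mM.

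Neighbouring genes did not always lie the same way. ABCB4 and ABCB1 follow each other on the minus strand of chromosome 7 with 22581 bases between them, and ABCB4 was higher in Huh7 while ABCB1 was higher in PLC cells. On chromosome 16, ABCC1 and ABCC6 face each other with 5853 bases between them; ABCC6 passed the test and ABCC1 did not.

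Of the 4 mitochondrial genes, ABCB6, a porphyrin transporter, passed the test. It had 111 and 177 reads in Huh7 and 14 and 6 in PLC cells, 11.2-fold (6.42 to 21.2) and 15.7-fold (7.09 to 43.5) higher in Huh7 (edgeR adjusted p = 5.89e-05). Another row of the table covers 54.6% of its exon positions on the same strand, and whether reads there were counted was not tested. Its level was 0.998 and 1.13 FPKM in Huh7 and 0.0888 and 0.0718 FPKM in PLC cells. ABCB8 and ABCB10, which serve potassium channels and haem synthesis, had log2 differences of -0.33 and -0.21 and missed the threshold.

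In peroxisomes and lysosomes, ABCD2, a peroxisomal importer of very long chain fatty acids, had 12 and 21 reads in Huh7 and 2 and 0 in PLC cells (adjusted p = 0.0294 in edgeR and 0.215 in DESeq2). In edgeR it was 0.0950 without the Huh7 library at 5 mM and 0.0603 without the PLC library at 25 mM. ABCD3, which imports branched-chain fatty acids and bile acid precursors, was high in all libraries, 26.0 and 27.4 FPKM in Huh7 and 28.8 and 36.7 FPKM in PLC cells, and missed the threshold (adjusted p = 0.281). ABCD4 and the lysosomal ABCB9 were not called either. The log2 difference of ABCB9 was -0.21, and -0.94 without the PLC library at 5 mM. Rows on the opposite strand cover part of its exons.

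ABCE1, which recycles ribosomes after translation, had the highest FPKM of the family in both Huh7 libraries. It stood at 55.1 and 55.6 FPKM in Huh7 and 28.6 and 25.2 FPKM in PLC cells, 1.93-fold (1.86 to 2.0) and 2.20-fold (2.11 to 2.30) higher in Huh7 (log2 difference 1.04, SE 0.21, edgeR adjusted p = 0.00126). Without the Huh7 library at 5 or 25 mM its adjusted p was 0.0648 or 0.0624. ABCF1, ABCF2 and ABCF3, which act in translation, had log2 differences of -0.15, -0.58 and -0.21 and missed the threshold. ABCF2 had an edgeR adjusted p of 0.113, and its log2 difference was -0.91 without the PLC library at 25 mM. PELO and HBS1L, the partners of ABCE1 in ribosome rescue, were not called (adjusted p = 0.607 and 0.199), and ETF1, the release factor, was higher in PLC cells at 108 and 75.4 against 47.3 and 44.02 FPKM (adjusted p = 0.00207).

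A further 30 genes around the family, namely 3 ABC genes named otherwise, 11 nuclear receptors and other factors, and 16 partners and transport genes, were all tested. Of these, 9 were higher in Huh7 (against 21.8% of all genes) and 11 in PLC cells (against 21.1%), and 0 passed the test for glucose (against 0.379%). NR1H4, SLCO1B3 and KCNJ8 among the 9 and KCNJ11 among the 11 passed the filter through 1 line alone. Their calls are no support of their own beside the reads. CFTR, the chloride channel of subfamily C, was higher in PLC at 6.98 and 11.6 against 0.593 and 0.428 FPKM (edgeR adjusted p = 3.79e-07). TAP1, which moves peptides for antigen presentation, was higher in PLC at 6.51 and 5.02 against 0.136 and 0.1245 FPKM (adjusted p = 1.40e-07), and its partner TAP2 missed the threshold (adjusted p = 0.159). SLCO1B3, a hepatocyte uptake carrier for bile acids and drugs, had 76 and 81 reads in Huh7 and 0 in both PLC libraries. It passed the filter through Huh7 alone (edgeR adjusted p = 3.74e-05). The potassium channel genes split by line: KCNJ11 had 0 reads in Huh7 and 175 and 74 in PLC cells, and KCNJ8 had 48 and 50 reads in Huh7 and 0 in PLC cells, while their ABC partners ABCC8 and ABCC9 had at most 6 and 14 reads in any library.

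For glucose, edgeR tested a change shared by both lines, with the line as a second term. Of the 40 ABC genes tested, 0 passed an adjusted p of 0.05, against 0.379% of all genes (88 of 23217). An unadjusted p under 0.05 was found for 5 of the 40 and for 1975 of all genes: ABCC2, ABCG2, ABCC1, ABCA2 and ABCG4. ABCC2 had the smallest adjusted p of the family, 0.136, with a log2 change of -0.77 (SE 0.20). DESeq2 and edgeR without a filter each called 1 ABC gene, ABCC2, with adjusted p of 0.0419 and 0.0280, and over the 6 alternatives its adjusted p ran from 0.0280 to 1.0.

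Within each line the ratio of 25 to 5 mM compares 2 libraries and has no replicate check. CPM values (counts scaled to the library total) were divided without an added constant, and a ratio was called past the fold when it was over 1.5 or under 0.67 and 1 of the libraries had 20 reads or more. In Huh7, 37 ABC genes had enough reads, and 3 were past the fold on the high side (8.11%, against 12.8% of all genes) and 3 on the low side (8.11%, against 9.49%). In PLC, 31 had enough reads, with 7 on the high side (22.6%, against 21.2%) and 3 on the low side (9.68%, against 16.8%). With TMM scaling the PLC split was 6 and 5 for the ABC genes and 3225 and 3925 for all genes, in place of 3969 and 3140. The median log2 ratio of the ABC genes was 0.012 in Huh7 and 0.034 in PLC cells, and that of all genes with enough reads was 0.054 and 0.058. TMM scaling would move every log2 ratio by -0.039 in Huh7 and -0.12 in PLC cells, and DESeq2 size factors by -0.022 and -0.13.

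**Figure D3:**
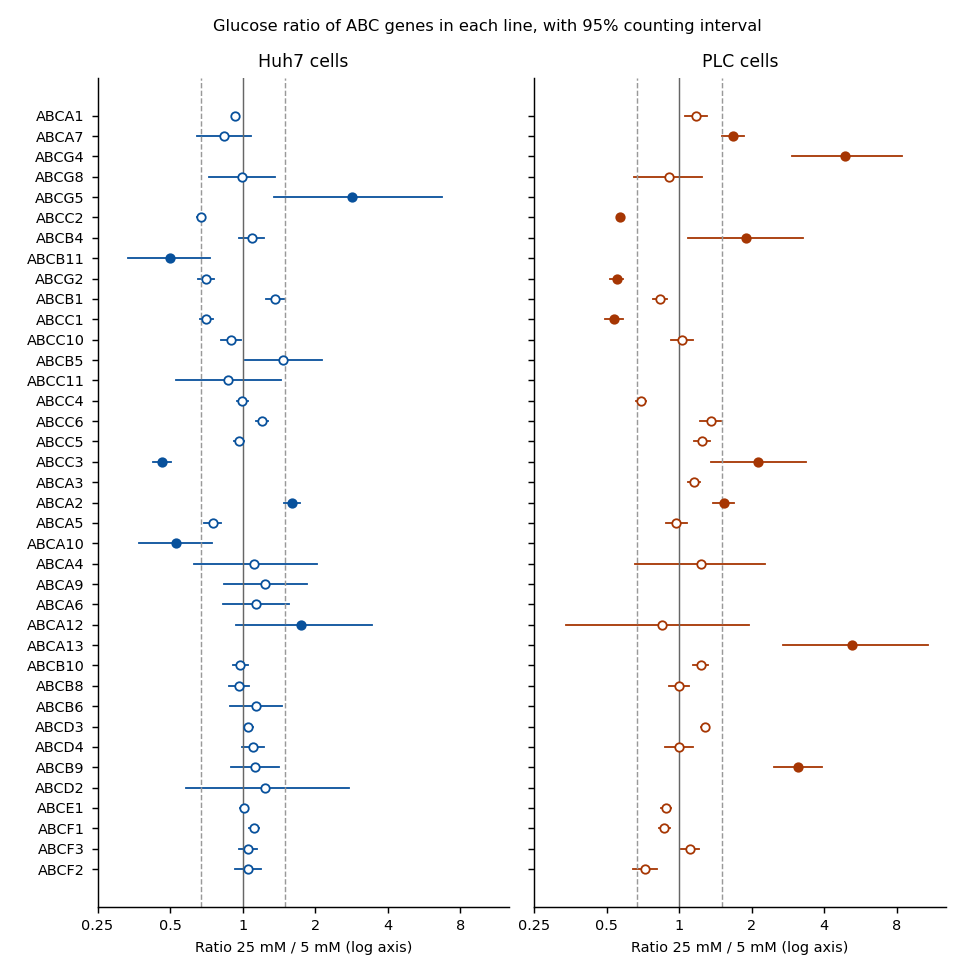
Ratio of 25 to 5 mM glucose for the ABC genes that had 20 reads or more in the better covered library of a line, on a log axis, in Huh7 (left) and PLC cells (right); bars are 95% counting intervals, dashed lines stand at 0.67 and 1.5, and filled points are past them. There are 6 filled points in Huh7 and 10 in PLC cells; ABCC3 is filled on the low side in Huh7 and on the high side in PLC cells.

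Past the fold in Huh7 were ABCG5 (ratio 2.84, interval 1.34 to 6.71), ABCA12 (1.75, 0.939 to 3.44) and ABCA2 (1.60, 1.48 to 1.73) on the high side. On the low side were ABCC3 (0.463, 0.427 to 0.502), ABCB11 (0.498, 0.336 to 0.735) and ABCA10 (0.529, 0.373 to 0.745). Of these 6, ABCA2 and ABCC3 had 941 reads or more in both Huh7 libraries and the other 4 had at most 82. ABCA12, a keratinocyte lipid transporter, had an interval that included 1. ABCC2 lay on the threshold at 0.6702 and was past it with TMM scaling (0.652).

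Past the fold in PLC cells were, on the high side, ABCA13 (5.22, 2.71 to 10.7), ABCG4 (4.89, 2.94 to 8.40), ABCB9 (3.10, 2.47 to 3.91), ABCC3 (2.13, 1.35 to 3.36), ABCB4 (1.89, 1.09 to 3.27), ABCA7 (1.67, 1.5 to 1.86) and ABCA2 (1.53, 1.39 to 1.69). ABCC1 (0.538, 0.493 to 0.585), ABCG2 (0.550, 0.517 to 0.586) and ABCC2 (0.570, 0.555 to 0.585) were past it on the low side. ABCB9, a lysosomal peptide transporter, went from 124 to 204 reads although the library at 25 mM was the smaller. In PLC cells at 5 and 25 mM, ABCA13 had 13 and 36 reads and ABCG4 had 22 and 57. ABCC3 had 39 and 44 reads there, and ABCB4 had 29 and 29. The ratios of ABCA13, ABCG4, ABCC3 and ABCB4 in PLC cells therefore rest on few reads. With DESeq2 size factors the interval of ABCB4 in PLC cells was 0.992 to 2.98 and included 1. With TMM scaling ABCA2 was no longer past the fold (1.41), and ABCC4 (0.640) and ABCF2 (0.663) were past it on the low side.

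Of 28 ABC genes with enough reads in both lines, 1 was past the fold in the same direction, ABCA2, against 7.08% of all genes. ABCA2, an endolysosomal lipid transporter, was at 3.83 and 6.13 FPKM in Huh7 and 2.61 and 3.99 FPKM in PLC cells at 5 and 25 mM, a ratio of 1.60 and 1.53, though in PLC cells it stayed under the fold with TMM or DESeq2 scaling. In opposite directions 1 was past it, ABCC3, against 2.43% of all genes. ABCC3 had 1504 and 980 reads in Huh7 and 39 and 44 in PLC cells, so the ratio in PLC cells rests on few reads.

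**Figure D4:**
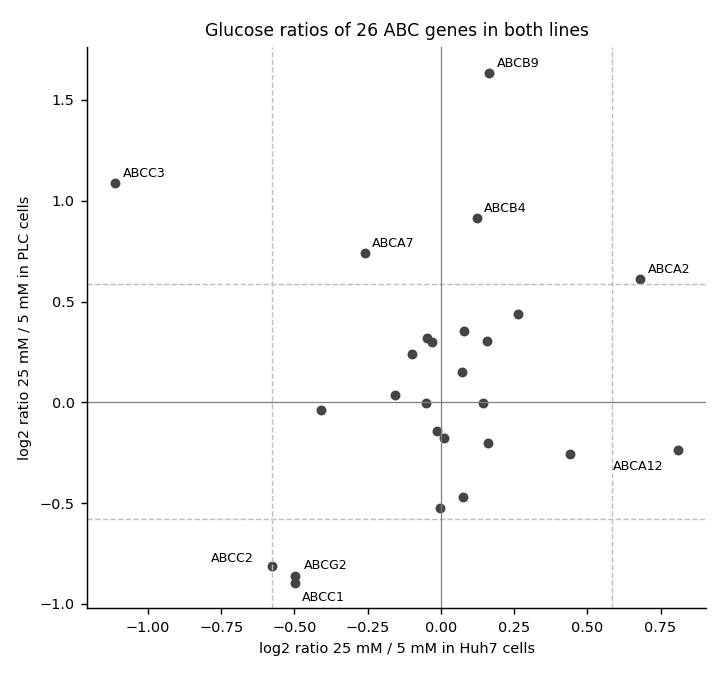
Log2 ratio of 25 to 5 mM in Huh7 (horizontal) against PLC cells (vertical) for 26 of the 28 ABC genes with enough reads in each line; each point is 1 gene and dashed lines mark ratios of 0.67 and 1.5. ABCC1, ABCC2 and ABCG2 lie together at the lower left, ABCA2 is alone in the upper right corner past both lines, and ABCC3 is at the upper left.

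Counting intervals lay under 1 in both lines for 3 of the 28 genes (10.7%, against 10.2% of all genes), namely ABCC1, ABCC2 and ABCG2. These are the drug and conjugate exporters ABCC1 and ABCG2 and the canalicular ABCC2. ABCC1 went from 12.8 to 9.04 FPKM in Huh7 (ratio 0.708) and from 10.5 to 5.63 FPKM in PLC cells, and ABCG2 from 11.3 to 7.98 FPKM in Huh7 (ratio 0.707) and from 26.1 to 14.4 FPKM in PLC cells. Another drug pump, ABCB1, had intervals on opposite sides, a ratio of 1.36 in Huh7 (1.25 to 1.48) and 0.836 in PLC cells (0.782 to 0.894). ABCC4 was at a ratio of 0.998 in Huh7 (0.947 to 1.05) and 0.695 in PLC cells (0.661 to 0.731).

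Intervals lay over 1 in both lines for 3 genes (10.7%, against 16.0%), ABCA2, ABCC6 and ABCD3, and on opposite sides for 4 (14.3%, against 11.7%), ABCA1, ABCB1, ABCC3 and ABCF1. How often an interval leaves out 1 depends on the number of reads. With TMM scaling, intervals lay under 1 in both lines for 5 genes (17.9%, against 13.8% of all genes), ABCA5 among them, over 1 for 2 (7.14%, against 11.7%) and on opposite sides for 4 (14.3%, against 11.9%). ABCD3 in Huh7 (0.990 to 1.07) and ABCA1 in PLC cells (0.976 to 1.21) then had intervals that included 1, and ABCC5 lay on opposite sides (0.895 to 0.990 in Huh7 and 1.06 to 1.24 in PLC cells). ABCA1 had a ratio of 0.933 in Huh7 and 1.18 in PLC cells, and ABCE1 of 1.01 and 0.883, so the large differences of these genes between the lines had the same direction at both glucose levels.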

How the data were processed

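RNA of 4 cultures, Huh7 and PLC cells at 5 and 25 mM glucose for 48 h, was sequenced by the authors after rRNA removal with a directional kit. The deposited values are counts, whole numbers of reads per gene without normalization. The submitters' processing notes name HISAT2, featureCounts and hg38; the annotation release and the strand setting are not given in the sources used here. Of 59657 table lines, 59652 were used; 5 broken lines of ANK2 without their own values were left out.

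The ABC genes, the roles and the lists were chosen with earlier results of these data known. Values are given in each library for genes past an adjusted p of 0.05 or past the fold in both lines and for 13 fixed genes; the rest are summarised. ABCC10, ABCC11, ABCD3, the further genes around the family and the genes past the fold in 1 line are named beyond that rule.

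FPKM was computed from the counts, the exon length and the library totals. Differences between lines and the shared glucose change were fitted on the counts with edgeR 4.0.16 (quasi-likelihood, TMM, filterByExpr, Benjamini-Hochberg over 23217 genes) in R 4.3.3. DESeq2 1.42.0 was an alternative. Ratios carry exact 95% Clopper-Pearson intervals (scipy 1.17.1); a line with 0 reads was set to 3 reads per library for bounds, which stands for 0.0991 to 0.187 CPM. Depth ranged from 16049686 to 30279716 reads. Promoters came from the RefSeq table. Results of 2 genes of the family are not reported here, and the figures leave them out. Scripts were tested on simulated data.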

Additional observations from a re-analysis of the deposited data

Results flagged for a closer look

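ABCC3, the basolateral exporter of conjugates, was past the fold in opposite directions in the lines. The ratio of 25 to 5 mM was 0.463 in Huh7, from 1504 and 980 reads. In PLC cells it was 2.13, from 39 and 44 reads. Each ratio compares 1 library with 1 library, so the difference of the ratios was not tested.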

How the results depend on the processing

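Between the lines, RLE size factors, library totals and no filter each called the same 21 ABC genes, and without a filter these were 47.7% of the ABC genes tested against 26.7% of all genes. DESeq2 called 19 of 44 (43.2%, against 18.4% of all genes), without ABCA13 and ABCD2. In these 2 settings the share of all genes is over 38660 genes, in place of 23217, and includes genes with very few reads. These shares are therefore not a like comparison with the ABC genes. A fit without the glucose term called 19 of 40 (47.5%, against 38.0%), without ABCC2 and ABCG2. With at least 10 counts in every library 11 of 28 were called (39.3%, against 39.2% of all genes), and the other 10 were not tested there. Over all genes the count was then 6340 in place of 9969. Leaving out 1 library, with the line as the only term, gave 14 to 22 ABC genes and 5249 to 11598 of all genes. Without the Huh7 library at 25 mM the count was 14, and ABCA13, ABCB1, ABCC2, ABCC5, ABCE1 and ABCG2 missed the threshold while ABCD2 was not tested. Without the Huh7 library at 5 mM (16) ABCA10, ABCB1, ABCC5, ABCD2 and ABCE1 missed it. Without the PLC library at 5 mM (21) ABCC2 and ABCG2 missed it and ABCB9 and ABCC1 passed, and without that at 25 mM (22) ABCA13 and ABCD2 missed it and ABCA2, ABCC4 and ABCF2 passed. In the fits without 1 library, line and glucose cannot be told apart. No direction of a called gene was reversed in any setting.

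For the shared glucose change, 0 ABC genes were called by edgeR with TMM, RLE or totals, with at least 10 counts in every library or without the line term, 1 without a filter and 1 by DESeq2. Over all genes the count was 88, and 19 with library totals, 526 without a filter, 27 with at least 10 counts in every library, 197 with DESeq2 and 0 without the line term, where 52 had an unadjusted p under 0.05. The cause of these differences was not tested.

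Past the fold in Huh7 were 6 of 37 ABC genes and 4325 of 19405 genes with enough reads. These counts were 1 (ABCC3) and 1444 when 1 was added to FPKM, and 3 and 1716 with a ratio over 2 or under 0.5. With FPKM over 0.5 in place of the 20 reads they were 2 of 26 ABC genes and 6187 of 21864 genes. In PLC cells 10 of 31 ABC genes and 7109 of 18744 genes became 3 (ABCC1, ABCC2 and ABCG2) and 3747 when 1 was added, and 4 and 3527 with a ratio over 2 or under 0.5. TMM and DESeq2 scaling gave 7 in Huh7 (against 4341 and 4343 of all genes) and 11 in PLC cells (against 7150 and 7188). With 1 library for each line and glucose level there were no replicate cultures to pair. The glucose fit compared the libraries within each line through its line term. Depth limits the genes under 20 reads in every library, for which no difference was detectable.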

Other observations

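Rows of the table with names close to the family, pseudogenes, antisense RNAs and a readthrough gene, numbered 16, and 8 of them had 0 reads in all libraries. Of the 5 with at least 20 reads in a library, ABCC6P1 was at 11.4 and 11.6 FPKM in Huh7 and 1.86 and 4.85 FPKM in PLC cells, the same order between lines as ABCC6. ABCC6P2 was at 7.17 and 7.62 FPKM in Huh7 and 7.33 and 10.6 FPKM in PLC cells. The pseudogene ABCA11P had 123 and 143 reads in Huh7 and 30 and 10 in PLC cells, and ABCA17P had 4 and 24 reads in Huh7 and 24 and 50 in PLC cells. ABCC5-AS1 had 18 and 26 reads in Huh7 and 1 and 8 in PLC cells.

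Exon positions of 17 ABC genes are shared with another row of the table, on the opposite strand for 12 and on the same strand for 6. ABCF2 shares 37.1% of its exon positions with the readthrough row ABCF2-H2BE1, which had 0 reads. The rows ARL6IP4 and OGFOD2 on the strand opposite ABCB9 had at most 14 and 35 reads. ABCC11, with at most 38 reads, shares 289 exon positions with LONP2, which had 2399 to 4170 reads and lies on the opposite strand. Whether such overlaps moved counts between rows was not tested.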
